A study of Homo sapiens with 12 samples.

Results

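Canonical WNT signalling switches on a small set of genes in many cell types, and 10 of these target genes were followed here: AXIN2, LEF1, SP5, NKD1, NOTUM, RNF43, ZNRF3, TCF7, DKK1 and DKK4. They were taken by symbol from the 36762 gene symbols that the hESC and iMeLC count tables share, and all 10 were present and passed the expression filter in every comparison. Bulk RNA sequencing covered 4 groups of 3 libraries each, all from UCLA1, an established human embryonic stem cell line. CDKO iMeLC are incipient mesoderm-like cells made from the lines CDKO1102, CDKO1105 and CDKO1312, in which the catalytic domain of the 5-methylcytosine oxidase TET1 is knocked out, and CTRL iMeLC were made from the control lines CTRL1101, CTRL1106 and CTRL1109. CDKO hESC and CTRL hESC are the undifferentiated embryonic stem cells of the same 2 sets of lines. iMeLC are a transient step on the way to primordial germ cell-like cells. The sources used here give neither how the lines were made, nor whether each is 1 clone, nor the iMeLC medium.

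Without a WNT signal, a complex built on AXIN proteins, APC, GSK3 and casein kinase 1 marks beta-catenin for destruction. WNT binding to Frizzled and LRP5 or LRP6 receptors stops this, and beta-catenin then joins TCF/LEF proteins on DNA and activates target genes. Several targets encode inhibitors of the pathway itself and form negative feedback, and in embryos the pathway is needed for the primitive streak and for mesoderm. Published iMeLC protocols commonly add an inhibitor of GSK3, which activates the pathway downstream of the receptors. By role, LEF1, TCF7 and SP5 encode transcription factors, AXIN2 and NKD1 intracellular inhibitors, RNF43 and ZNRF3 membrane ubiquitin ligases, and DKK1, DKK4 and NOTUM secreted antagonists.

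Library totals ran from 52121702 to 109479071 counts in iMeLC and from 12517593 to 18855099 counts in hESC, so low counts carry less counting error in iMeLC. The stage coincides with the table, the table's date and the depth, and these cannot be told apart in any iMeLC against hESC difference. Levels are given as CPM, counts scaled to a common library total after TMM normalisation of all 12 libraries. The summed level of 6 pluripotency markers was 3587 to 3838 CPM in CDKO iMeLC, 3131 to 3627 CPM in CTRL iMeLC, 5337 to 5884 CPM in CDKO hESC and 5033 to 5535 CPM in CTRL hESC, with each of the 6 above 1 CPM in every library. TET1 had 325, 356 and 304 CPM in CDKO iMeLC against 288, 322 and 293 CPM in CTRL iMeLC, and 375, 396 and 335 CPM in CDKO hESC against 290.4, 339 and 304 CPM in CTRL hESC. These counts cover the whole gene, the exons outside the catalytic domain included, and so do not check the knockout. Each group holds libraries of different lines, and the p-values rest on the spread among them, which mixes differences of line, of culture and of preparation.

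Libraries of 1 group stood apart in mesendoderm and endoderm markers. The summed level of the 9 markers TBXT, EOMES, MIXL1, GSC, FOXA2, SOX17, GATA6, GATA4 and CER1 was 1502, 1232 and 1869 CPM in CDKO1102, CDKO1105 and CDKO1312 iMeLC and 481, 96.6 and 1030.0 CPM in CTRL1101, CTRL1106 and CTRL1109 iMeLC. In hESC it was 52.1, 78.4 and 586 CPM in CDKO hESC 1 to 3 and 100.02, 22.7 and 26.6 CPM in CTRL hESC 1 to 3. CDKO hESC 3 was thus the highest stem cell library, and CTRL1106 the lowest iMeLC library, and all 9 markers had counts in every library. CER1, a secreted NODAL, BMP and WNT antagonist of the anterior endoderm, made up 358 of the 586 CPM in CDKO hESC 3. In bulk RNA, more cells of a type and more RNA per cell cannot be told apart.

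The promoter windows of SP5 and DKK1 are shown because these genes were among those that differed most between the stages, and because their windows held more than 1 TCF/LEF-type motif. Windows of 250 bases upstream of the RefSeq transcription start (GRCh38.p14) were searched on both strands for the motif CTTTGAA as well as for its variants CTTTGAT, also for CTTTGTA and lastly for CTTTGTT, 4 spellings of which only 1 can start at a given base of a strand. Of 35116 windows in the table, 11.96% held at least 1 match. RefSeq entries were matched by symbol for 5 members, with 7 windows in all, and 3 of the windows held a match, those of SP5, DKK1 and 1 of the 2 TCF7 starts. The windows of LEF1 and RNF43 held none, and AXIN2, NKD1, NOTUM, ZNRF3 and DKK4 were not searched. Both sequences run 5′ to 3′ on the plus strand, SP5 at chr2:170715087-170715336 and DKK1 at chr10:52314031-52314280, with motif matches in capitals (TTCAAAG is CTTTGAA read on the minus strand).
SP5: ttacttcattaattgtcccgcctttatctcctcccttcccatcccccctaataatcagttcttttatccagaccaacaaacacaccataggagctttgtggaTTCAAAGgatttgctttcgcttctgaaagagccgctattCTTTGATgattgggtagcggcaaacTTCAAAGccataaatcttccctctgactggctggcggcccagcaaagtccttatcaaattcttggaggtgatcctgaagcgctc
DKK1: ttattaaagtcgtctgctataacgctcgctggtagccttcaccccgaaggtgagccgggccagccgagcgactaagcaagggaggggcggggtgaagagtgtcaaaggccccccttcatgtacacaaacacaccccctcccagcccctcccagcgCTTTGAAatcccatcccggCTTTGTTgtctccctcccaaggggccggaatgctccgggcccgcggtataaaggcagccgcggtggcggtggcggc
Counted back from the start, the SP5 matches begin at positions -148, -109 and -84 and the DKK1 matches at -95 and -76. A match is a description of these letters and not a measured binding site.

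The WNT target genes were a low to moderate part of the stem cell transcriptome and a larger one in iMeLC. Their summed level was 520.3 to 639 CPM in CDKO iMeLC, 392 to 668 CPM in CTRL iMeLC, 236 to 263 CPM in CDKO hESC and 199 to 221 CPM in CTRL hESC. AXIN2 alone made up 18.8% to 27.5% of that sum in iMeLC libraries and 41.6% to 51.6% in hESC libraries. The leading gene per length changed with the stage. On the scale of CPM per kilobase of exon, SP5 had the highest level in iMeLC, with a mean of 83.2 ± 11.7 in CDKO and 92.2 ± 27.3 in CTRL (SD, n = 3 each), and AXIN2 came next, with 29.4 ± 3.69 in CDKO and 23.6 ± 6.18 in CTRL. The libraries of these 2 genes did not overlap in either iMeLC group, whereas AXIN2 and third-placed DKK4 (15.5 ± 22.7 CPM per kilobase) overlapped in CTRL iMeLC. In hESC AXIN2 was the highest, with 21.9 ± 0.808 CPM per kilobase in CDKO and 18.4 ± 3.02 in CTRL, and ZNRF3 was the next by mean, with 6.95 ± 0.306 in CDKO and 6.83 ± 0.215 in CTRL. In CDKO hESC the libraries of ZNRF3 overlapped those of third-placed SP5 (5.45 ± 4.51). The lowest means were those of NOTUM in iMeLC (0.533 in CDKO and 0.425 in CTRL) and of RNF43 in hESC (0.211 in CDKO and 0.198 in CTRL). The last place is not resolved in CTRL iMeLC, where RNF43 overlapped NOTUM, or in CDKO hESC, where LEF1 overlapped RNF43. Below TCF7 in CTRL hESC, every gene overlapped the next one in the order, so the order of SP5, NKD1, DKK4, LEF1, DKK1, NOTUM and RNF43 is not resolved there.

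**Figure D1:**
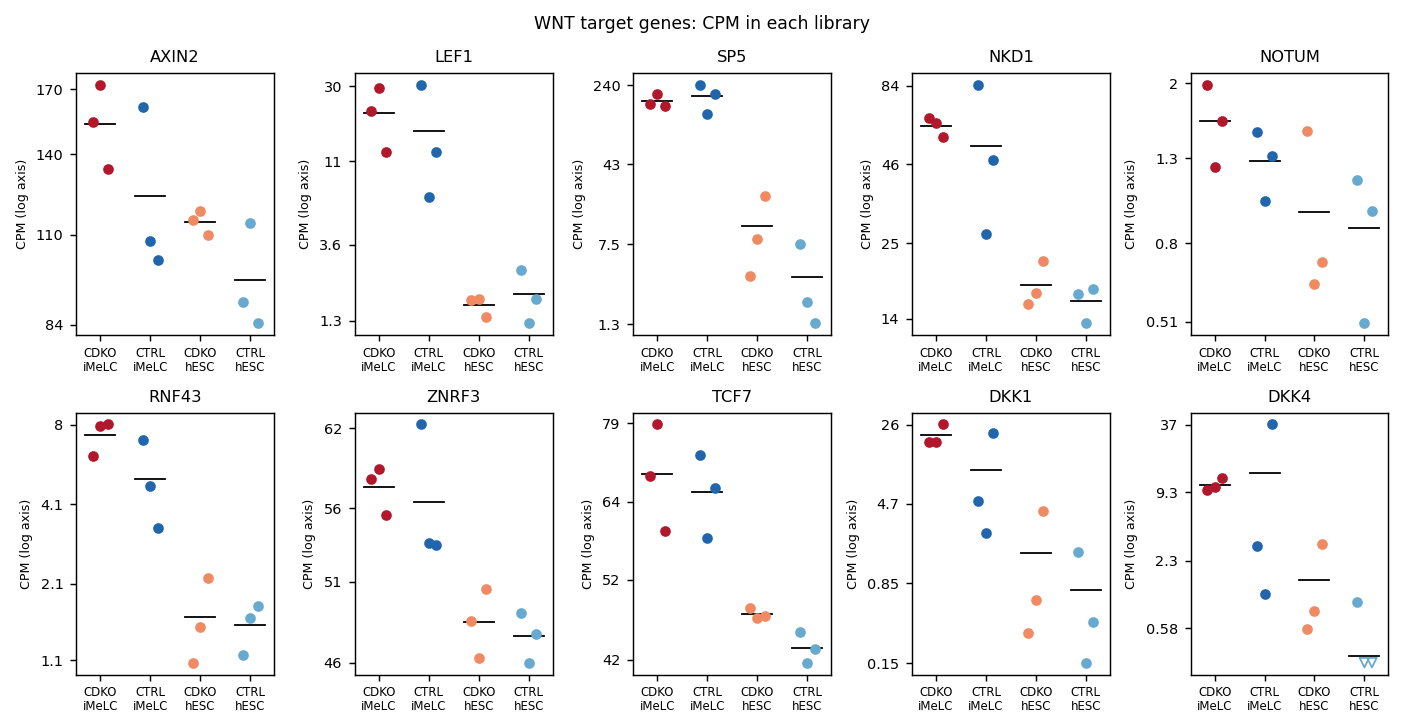
CPM of each WNT target gene in each library (log axis, 1 panel a gene), with CDKO iMeLC, CTRL iMeLC, CDKO hESC and CTRL hESC from left to right and a line at each group's mean. For LEF1, SP5, NKD1, RNF43, ZNRF3 and TCF7 every iMeLC point lies above every hESC point, while the CDKO and CTRL points of a stage overlap for all genes but TCF7 in hESC; open triangles near the bottom mark the 2 libraries with 0 DKK4 counts.

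Between the stages, the target genes were higher in iMeLC in both genotypes. By edgeR's quasi-likelihood test over 12 libraries, with Benjamini-Hochberg adjustment over 20262 genes and a threshold of 0.05, 8 of 10 members were called higher in CDKO iMeLC than in CDKO hESC and 8 of 10 were called higher in CTRL iMeLC than in CTRL hESC, and 0 were called lower in either. Of all genes tested, 32.1% were called higher in the CDKO lines and 29.5% in the CTRL lines. The median log2 fold change of the members was 1.98 in CDKO lines, where that of all genes was -0.08, and 1.74 in CTRL lines, where that of all genes was -0.01. The iMeLC libraries all lay above the hESC libraries for 9 members in CDKO lines and for 8 in CTRL lines, against 36.1% and 30.6% of all genes. The 2 comparisons use different libraries but the same pair of tables.

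Among the transcription factors, LEF1 and SP5 moved most. SP5, a zinc finger protein known to dampen WNT target transcription in human pluripotent cells, had 161, 199 and 154 CPM in CDKO iMeLC against 3.76, 8.32 and 21.6 CPM in CDKO hESC. In the control lines SP5 had 241, 129.5 and 199 CPM in CTRL iMeLC against 7.47, 2.12 and 1.33 CPM in CTRL hESC. Every iMeLC library was thus far above every hESC library, and within hESC the levels spread more than 5-fold in each genotype (5.76 in CDKO and 5.62 in CTRL, highest over lowest). The log2 fold change of SP5 was 3.91 (SE 0.56, adjusted p = 5.87e-05) in CDKO lines and 5.74 (SE 0.63, adjusted p = 6.59e-06) in CTRL lines, by the edgeR test. It was 4.78 in CDKO lines without CDKO hESC 3 and 6.81 in CTRL lines without CTRL hESC 1. LEF1, a partner of beta-catenin on DNA, had 21.5, 29.2 and 12.4 CPM in CDKO iMeLC against 1.73, 1.75 and 1.38 CPM in CDKO hESC. It had 30.5, 6.87 and 12.5 CPM in CTRL iMeLC against 2.58, 1.26 and 1.74 CPM in CTRL hESC. The groups of both genotypes were well apart, with log2 fold changes of 3.70 (SE 0.53, adjusted p = 5.60e-05) in CDKO lines and 3.16 (SE 0.51, adjusted p = 0.000202) in CTRL lines, or 2.34 in CTRL lines without CTRL1101 iMeLC. TCF7, the other TCF/LEF member of the set, was already at 47.0 to 48.2 CPM in CDKO hESC and 41.7 to 45.2 CPM in CTRL hESC and rose less, to 59.3 to 78.7 CPM in CDKO iMeLC and 58.1 to 72.5 CPM in CTRL iMeLC. Its log2 fold changes were 0.54 (adjusted p = 0.000907) in CDKO lines and 0.60 (adjusted p = 0.000487) in CTRL lines. LEF1 exons overlap LEF1-AS1 and TCF7 exons overlap SKP1 on the opposite strand, and the sources used here do not say whether the counting used strand.

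The intracellular inhibitors differed from each other in how far they moved. NKD1, which binds Dishevelled, had 65.7, 63.2 and 56.7 CPM in CDKO iMeLC against 15.7, 17.0 and 21.8 CPM in CDKO hESC, and 84.4, 26.9 and 47.5 CPM in CTRL iMeLC against 16.9, 13.5 and 17.6 CPM in CTRL hESC. No library of 1 stage reached those of the other, and the log2 fold changes were 1.76 (SE 0.31, adjusted p = 0.000291) in CDKO lines and 1.72 (SE 0.31, adjusted p = 0.000428) in CTRL lines. AXIN2, the inducible scaffold of the destruction complex and a widely used readout of the pathway, had 154, 172 and 134 CPM in CDKO iMeLC against 115, 118 and 109.8 CPM in CDKO hESC. It had 161, 108 and 102 CPM in CTRL iMeLC against 90.0, 114 and 84.4 CPM in CTRL hESC, where CTRL hESC 2 lay above 2 of the iMeLC libraries. The log2 fold change of AXIN2 was 0.42 (SE 0.16, adjusted p = 0.0395) in CDKO lines and 0.36 (SE 0.16, adjusted p = 0.0845) in CTRL lines, so it was called in the CDKO lines alone, and the interaction given further on does not separate the genotypes. Its call in CDKO lines was lost under median-ratio scaling (adjusted p = 0.0699), by DESeq2 (0.0575) and with a filter of 1 CPM (0.111). It was also lost without any 1 of 7 libraries (CDKO hESC 1, 2 or 3, CDKO1102, CDKO1105, CTRL1106 or CTRL1109 iMeLC), at most to 0.222 without CDKO1105. In CTRL lines AXIN2 was called without CTRL hESC 2 (0.51, adjusted p = 0.0289), without CTRL1109 iMeLC (0.43, adjusted p = 0.0453) and with no filter (0.41, adjusted p = 0.0246), and stood at 0.08 (adjusted p = 0.602) without CTRL1101 iMeLC.

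The paired membrane ligases, which remove Frizzled receptors from the cell surface, also moved unequally. RNF43 had 6.15, 7.93 and 8.03 CPM in CDKO iMeLC against 1.08, 1.46 and 2.20 CPM in CDKO hESC, and 7.03, 4.78 and 3.37 CPM in CTRL iMeLC against 1.15, 1.57 and 1.74 CPM in CTRL hESC. The stages did not overlap, and the rise of RNF43 on the log2 scale was 2.20 (SE 0.32, adjusted p = 6.15e-05) in CDKO lines and 1.76 (SE 0.32, adjusted p = 0.000459) in CTRL lines. RNF43 exons overlap SUPT4H1 and AC004687.2 on the same strand and TSPOAP1-AS1 on the other, so its counts are uncertain. ZNRF3 was several times more abundant than RNF43 per length and nearly flat, with 55.5 to 58.9 CPM in CDKO iMeLC, 53.4 to 62.3 CPM in CTRL iMeLC, 46.3 to 50.5 CPM in CDKO hESC and 46.0 to 49.0 CPM in CTRL hESC. Its log2 fold change was 0.25 in both genotypes (SE 0.08 each, adjusted p = 0.0205 in CDKO lines and 0.0245 in CTRL lines). Both ZNRF3 calls were lost under median-ratio scaling, with adjusted p of 0.0592 in CDKO lines and 0.139 in CTRL lines, by DESeq2 (0.0648 and 0.162 in the same order) and with a filter of 1 CPM (0.149 and 0.105). The call in CDKO lines was lost without CDKO hESC 2 or any 1 iMeLC library but CTRL1101, at most to 0.158 without CDKO1105. That in CTRL lines was lost without CTRL hESC 2, CTRL1101 or any 1 CDKO iMeLC library, at most to 0.183 without CTRL1101, and in a fit of the 6 CTRL libraries alone (0.111).

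Of the secreted antagonists, DKK1 and DKK4, ligands of LRP5 and LRP6 that block WNT reception, were low in most hESC libraries and highest there in CDKO hESC 3. DKK1 had 18.0, 17.9 and 26.2 CPM in CDKO iMeLC against 0.289, 0.584 and 4.05 CPM in CDKO hESC, and 5.04, 2.49 and 21.8 CPM in CTRL iMeLC against 1.65, 0.152 and 0.367 CPM in CTRL hESC. All iMeLC libraries were above all hESC libraries within a genotype, with log2 fold changes of 3.61 (SE 0.93, adjusted p = 0.00479) in CDKO lines and 3.80 (adjusted p = 0.00686) in CTRL lines. Without CTRL1109 iMeLC, the highest control library, the value in CTRL lines was 2.37 (adjusted p = 0.0358), without CTRL hESC 1 it was 5.23 (adjusted p = 0.00578), and without CDKO hESC 3 that in CDKO lines was 5.49 (adjusted p = 0.00141). DKK4 had 9.73, 10.3 and 12.4 CPM in CDKO iMeLC against 0.578, 0.827 and 3.28 CPM in CDKO hESC. It had 3.09, 1.16 and 37.2 CPM in CTRL iMeLC, against 0.989 CPM (18 counts) in CTRL hESC 1 and 0 counts in CTRL hESC 2 and 3, which allows up to 0.151 and 0.138 CPM (3 counts, for counting error only). DKK4 was called in CTRL lines, at 5.48 on the log2 scale (SE 1.41, adjusted p = 0.00602), and not in CDKO lines, with 2.75 (SE 1.15, adjusted p = 0.0544). Without CTRL1109 iMeLC the DKK4 value in CTRL lines was 2.72 (adjusted p = 0.0401), and without CDKO hESC 3 the value in CDKO lines was 3.91 (adjusted p = 0.0446). DKK4 was also called in CDKO lines in a fit of the 6 CDKO libraries alone (2.70, adjusted p = 0.000174), with no filter (2.81, adjusted p = 0.0129) and without any 1 of the CTRL iMeLC libraries (2.68 to 2.69, adjusted p = 0.00982 to 0.0410). NOTUM, an enzyme that strips the lipid from WNT proteins, stayed low, with 1.98, 1.24 and 1.61 CPM in CDKO iMeLC against 1.52, 0.632 and 0.717 CPM in CDKO hESC, and 1.51, 1.02 and 1.32 CPM in CTRL iMeLC against 1.15, 0.505 and 0.963 CPM in CTRL hESC. Its stages overlapped in both genotypes, and neither difference was called (0.78, adjusted p = 0.106 in CDKO lines and 0.56, adjusted p = 0.259 in CTRL lines). Without CDKO hESC 1, NOTUM was called in CDKO lines, at 1.27 (adjusted p = 0.0246). DKK1 exons overlap PRKG1-AS1, and NKD1 exons AC007608.1, on the opposite strand, and AXIN2 exons overlap AC004805.1 on the same strand.

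**Figure D2:**
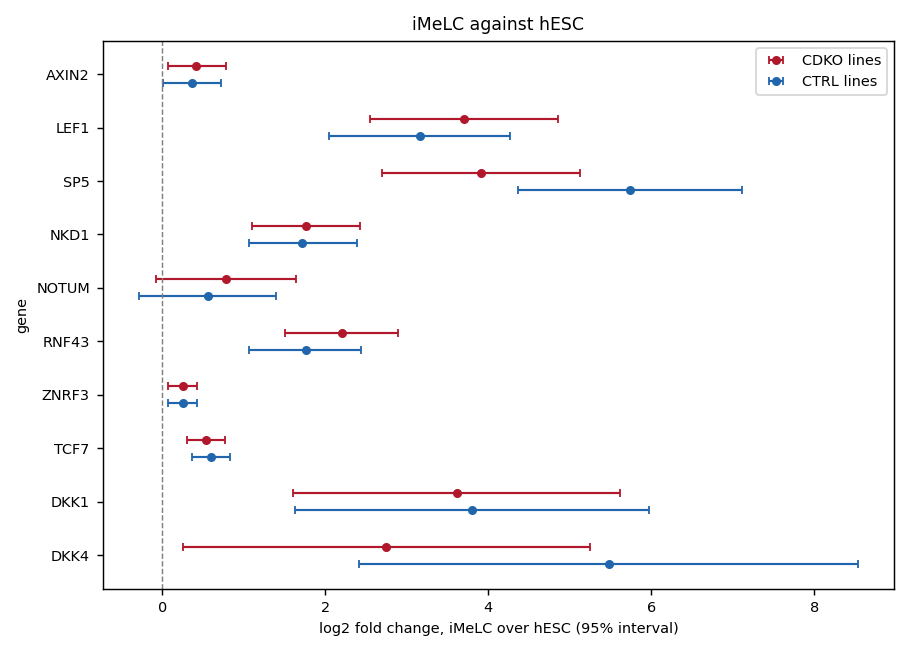
Log2 fold change of each WNT target gene in iMeLC over hESC, with 95% intervals from the edgeR fit over 12 libraries, for CDKO lines (red, upper) and CTRL lines (blue, lower). SP5, DKK1, LEF1 and, in CTRL lines, DKK4 lie above 3, while ZNRF3 lies at 0.25 in both genotypes.

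No WNT target gene differed between CDKO and CTRL past the threshold in either stage. In hESC, tested over 6 libraries and 17222 genes, 0 of 10 members were called, where 1.31% of all genes were. In iMeLC, over 6 libraries and 19999 genes, 0 of 10 were called, where 0.345% of all genes were. By the edgeR test, 2 members had an unadjusted p under 0.05 in hESC, AXIN2 and SP5, and 0 had one in iMeLC. The share of all genes with such a p was not counted, so these counts have nothing to be set against. The DESeq2 test also called 0 members in each stage. The median log2 fold change of the members, CDKO over CTRL, was 0.24 in iMeLC, where that of all genes was -0.03, and 0.17 in hESC, where that of all genes was 0.00. The libraries of the 2 genotypes did not overlap for 1 member in hESC (TCF7) and for 0 members in iMeLC, against 22.0% and 26.5% of all genes.

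How large a difference the data leave room for varied widely by gene. ZNRF3 had narrow intervals, with a log2 fold change of 0.00 (95% interval -0.22 to 0.21) in iMeLC and 0.04 (-0.13 to 0.20) in hESC. So did TCF7, at 0.04 (-0.26 to 0.33) in iMeLC and 0.14 (-0.03 to 0.30) in hESC, where 48.2, 47.0 and 47.2 CPM in CDKO hESC all lay above 45.2, 41.7 and 43.3 CPM in CTRL hESC. The intervals of these 2 genes and of AXIN2 lie within a doubling in both directions, whereas those of LEF1, SP5, RNF43, NOTUM, DKK1 and DKK4 reach past one in at least 1 stage. AXIN2 was higher in CDKO by similar amounts in both stages, at 0.28 (SE 0.18, adjusted p = 0.398) in iMeLC and 0.26 (SE 0.11, adjusted p = 0.278) in hESC, and its libraries overlapped in both. It was called in each stage without 1 control library, at 0.52 (adjusted p = 0.0304) without CTRL1101 iMeLC and at 0.40 (adjusted p = 0.0431) without CTRL hESC 2. NKD1 stood at 0.20 (SE 0.34) in iMeLC and 0.19 (SE 0.15) in hESC, and turned to -0.12 in iMeLC without CTRL1106. RNF43 stood at 0.52 (-0.13 to 1.16) in iMeLC and 0.11 (-0.63 to 0.84) in hESC, and NOTUM at 0.29 (-0.43 to 1.01) and 0.09 (-0.92 to 1.11) in the same stages. For LEF1 the values were 0.31 (-0.89 to 1.51) in iMeLC and -0.19 (-0.89 to 0.51) in hESC, with its highest and its lowest iMeLC level both in CTRL libraries (30.5 CPM in CTRL1101 and 6.87 CPM in CTRL1106).

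SP5, DKK1 and DKK4 had the largest fitted differences in hESC, and none passed the threshold. SP5 stood at 1.67 (SE 0.67, 95% interval 0.16 to 3.18, adjusted p = 0.263) in hESC, where CDKO hESC 3 held 21.6 CPM and the other CDKO libraries lay on either side of CTRL hESC 1. Without CDKO hESC 3 its value was 0.78 (adjusted p = 0.581), and without CTRL hESC 1 it was 2.72 (adjusted p = 0.119). In iMeLC SP5 was at -0.18 (-0.67 to 0.31). DKK4 stood at 2.35 (SE 1.07, -0.05 to 4.75, adjusted p = 0.319) in hESC and at 1.19 (adjusted p = 0.664) without CDKO hESC 3. In iMeLC it was at -0.40 (-2.81 to 2.01), where the 3 CDKO libraries lay between CTRL1101 and CTRL1109, and at 2.33 (adjusted p = 0.0920) without CTRL1109. DKK1 stood at 1.04 (-0.56 to 2.64) in iMeLC, or 2.44 (adjusted p = 0.0598) without CTRL1109, and at 1.26 (-0.86 to 3.38) in hESC. Without CDKO hESC 3 its hESC value turned to -0.62 (adjusted p = 0.783). Without any expression filter, the edgeR test called SP5 (1.65, adjusted p = 1.56e-06) and DKK4 (2.32, adjusted p = 0.00190) in hESC.

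**Figure D3:**
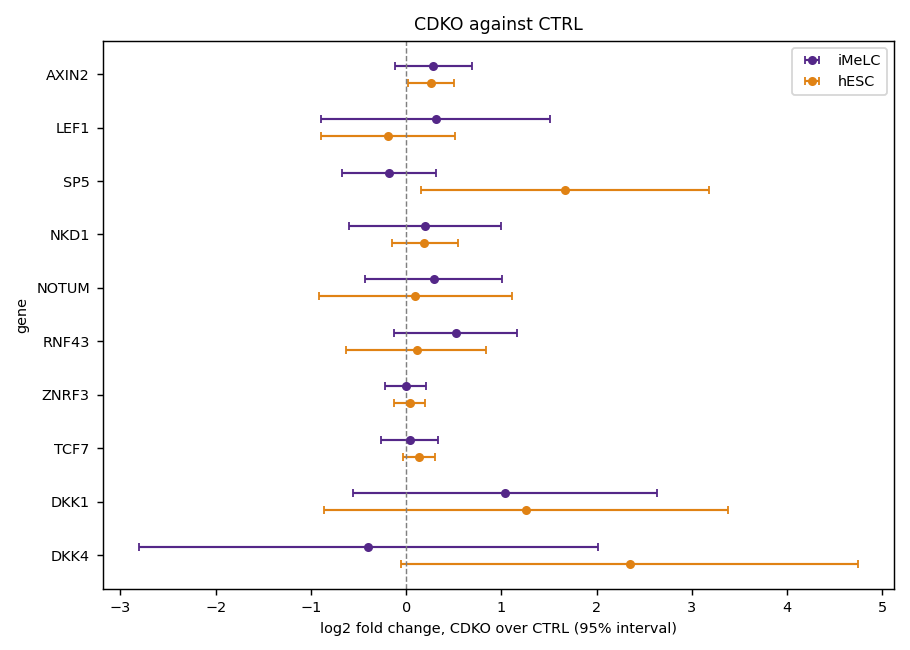
Log2 fold change of each WNT target gene in CDKO over CTRL, with 95% intervals from the edgeR fits over 6 libraries, for iMeLC (purple, upper) and hESC (orange, lower). The intervals of all 10 genes cross 0 in iMeLC, and only those of AXIN2 and SP5 lie above 0 in hESC before adjustment over all genes.

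The interaction term over 12 libraries asked if CDKO and CTRL differed by more in one stage than in the other. It was called for 0 of 10 members, where 0.0197% of all genes were called, and the DESeq2 test called 0 members as well. SP5 alone had an unadjusted p under 0.05 by the edgeR test, and the share of all genes with such a p was not counted. SP5 had an interaction of -1.83 (SE 0.78, 95% interval -3.52 to -0.15, adjusted p = 0.413), and it moved to -0.97 (adjusted p = 0.727) without CDKO hESC 3. DKK4 had -2.72 (SE 1.84, adjusted p = 0.615), and AXIN2 had 0.06 (95% interval -0.44 to 0.56, adjusted p = 0.944).

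Across the hESC libraries, SP5, DKK1 and DKK4 were highest where the mesendoderm marker sum was highest. The full order matched for DKK4, with CTRL hESC 2 and 3 tied at 0 counts, but not for SP5 or DKK1. SP5 was higher in CDKO hESC 2 (8.32 CPM) than in CTRL hESC 1 (7.47 CPM), against the order of the sums. The 3 hESC libraries with the highest marker sums, CDKO hESC 3 (586 CPM), CTRL hESC 1 (100.02 CPM) and CDKO hESC 2 (78.4 CPM), also held the 3 highest levels of each of these genes. For DKK1 these were 4.05 CPM in CDKO hESC 3 and 0.584 CPM in CDKO hESC 2, with 1.65 CPM in CTRL hESC 1, while the remaining libraries had 0.289 CPM in CDKO hESC 1 and 0.152 and 0.367 CPM in CTRL hESC 2 and 3. In iMeLC, CTRL1106 had the lowest marker sum and the lowest level of SP5, DKK1, DKK4, LEF1, NKD1, NOTUM and TCF7 among the controls. Other iMeLC libraries did not follow the marker sums. Among CDKO iMeLC, CDKO1312 had the highest sum, DKK1, DKK4 and RNF43, but the lowest level of 6 of 10 members, SP5 and LEF1 included. CER1 made up 1234 of the 1869 CPM in CDKO1312. That library was the lowest CDKO iMeLC library for TBXT (30.0 CPM), EOMES (126 CPM) and MIXL1 (147 CPM). It was the highest for CER1, GSC, FOXA2, SOX17, GATA6 and GATA4. CTRL1109 had the highest sum of the controls, while CTRL1101 was the highest control for 8 members. In hESC AXIN2 was not highest where the marker sums were, since CDKO hESC 3 was the lowest CDKO hESC library for it and CTRL hESC 1 was below CTRL hESC 2. All 9 markers had a positive log2 fold change for CDKO over CTRL in hESC, from 1.54 to 2.56, with 0 called. CDKO hESC 3 held the highest hESC level of all 9. The marker sum of CTRL hESC 1 (100.02 CPM) lay above those of CDKO hESC 1 and 2 (52.1 and 78.4 CPM). In iMeLC 8 of 9 had a positive value, TBXT stood at -0.01, and 0 were called. CTRL hESC 1 also had the highest hESC sum of 6 amnion or trophectoderm markers (GATA3, TFAP2A, CDX2, ISL1, GABRP and HAND1), at 21.1 CPM. That sum was 5.64 CPM in CDKO hESC 3 and 4.35 to 7.37 CPM in the remaining hESC libraries. The part of cells expressing either set of markers in these levels was not tested.

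**Figure D4:**
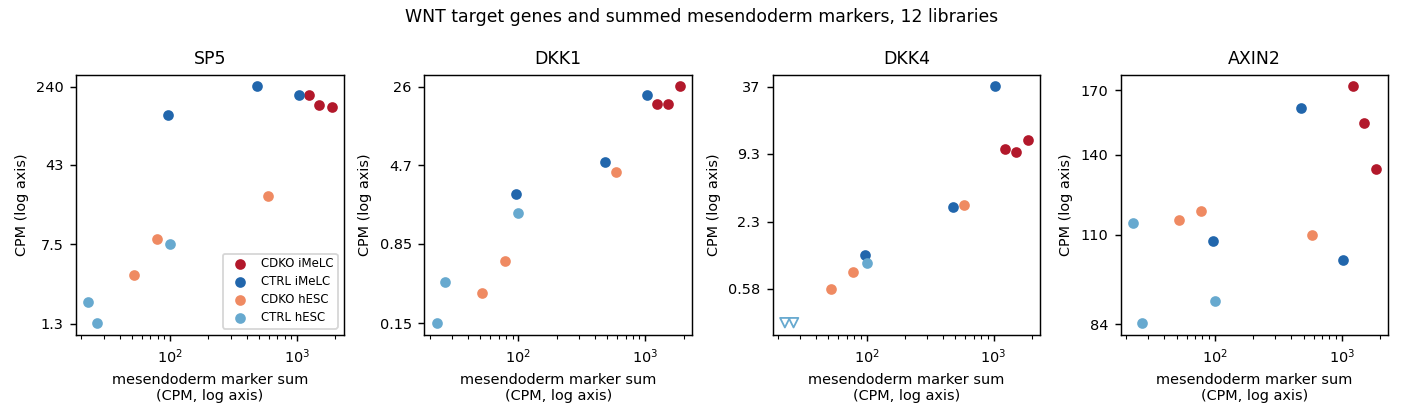
CPM of SP5, DKK1, DKK4 and AXIN2 (log axis) against the summed CPM of the 9 mesendoderm and endoderm markers (log axis) in each of the 12 libraries, coloured by group. SP5, DKK1 and DKK4 are highest in the hESC libraries with the highest marker sums, with CDKO hESC 3 highest at 586 CPM of markers, and AXIN2 shows no such pattern. Open triangles mark 0 DKK4 counts.

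The libraries of the control lines differed among themselves more than those of the CDKO lines in iMeLC. The coefficient of variation over 3 libraries was lower in CDKO than in CTRL iMeLC for 8 of 10 members, and for 65.4% of all genes tested. The median coefficient was 14.1% in CDKO and 33.1% in CTRL over the members, and 11.9% in CDKO and 18.8% in CTRL over all genes. DKK4 levels had a highest over lowest ratio of 1.27 in CDKO iMeLC and 32.1 in CTRL iMeLC, DKK1 of 1.47 and 8.76, and NKD1 of 1.16 and 3.13, in the same order of groups. CTRL1101 held the highest control iMeLC level of 8 members and CTRL1106 the lowest of 7. In hESC the coefficient was lower in CDKO for 5 of 10 members and 58.4% of all genes. No test of this difference in spread was made.

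Genes of the pathway upstream of the targets were called in both directions between the stages, as were large shares of all genes. Among 16 tested WNT ligands, 6 were called higher and 2 lower in iMeLC in CDKO lines, where 32.1% and 27.7% of all genes were. In CTRL lines 5 were called higher and 3 lower, near the 29.5% and 19.9% of all genes. WNT3, the ligand required for the mouse primitive streak, had 86.5, 96.5 and 85.1 CPM in CDKO iMeLC against 8.52, 11.0 and 15.8 CPM in CDKO hESC, and 66.6, 18.9 and 96.0 CPM in CTRL iMeLC against 6.21, 7.88 and 4.08 CPM in CTRL hESC. All iMeLC libraries were above all hESC libraries, with log2 fold changes of 2.92 in CDKO lines and 3.32 in CTRL lines. WNT10B rose by 4.05 and 3.98 and WNT8A by 3.13 and 3.63 on the same log2 scale in CDKO and CTRL lines. WNT5B had 1.70 and 2.68 and WNT8B -3.03 and -2.29 in the same order, all called.

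Of 19 tested receptors and R-spondins, which amplify WNT signals by clearing RNF43 and ZNRF3, 6 were called higher and 6 lower in CDKO lines, near the 32.1% and 27.7% of all genes, and 5 higher and 8 lower in CTRL lines, where 29.5% and 19.9% of all genes were. The co-receptor LRP5 had log2 fold changes of 1.96 in CDKO lines and 1.53 in CTRL lines, whereas the receptor FZD7 had -0.98 and -0.88 in the same order. RSPO1 had -4.21 and -1.83, FZD8 had -0.93 and -1.24, and LGR6 had 1.11 and 2.36, in CDKO and CTRL lines, all called. The calls of LGR6 in CDKO lines (adjusted p = 0.0472) and of RSPO1 in CTRL lines (adjusted p = 0.0380) were lost in 8 and 7 of the 12 fits without 1 library, at most to 0.177 without CDKO1102 iMeLC and to 0.147 without CTRL hESC 2. RSPO3 had 3.17 in CDKO lines and was not called in CTRL lines, at a fold of 2.30 (adjusted p = 0.131). Of 24 cytoplasmic and nuclear transducers, 11 were called higher and 5 lower in CDKO lines, where 32.1% and 27.7% of all genes were. In CTRL lines 10 were called higher and 4 lower, where 29.5% and 19.9% of all genes were. TNKS2, a tankyrase that marks AXIN for turnover, had 0.86 and 0.75, and casein kinase CSNK1A1 had 1.10 and 0.82, in CDKO and CTRL lines. CTNNB1, which encodes beta-catenin, had 0.65 and 0.26, the kinase GSK3A 0.67 and 0.41, AXIN1 0.60 and 0.77, and APC2 -1.68 and -2.83, in CDKO and CTRL lines, all called. The CTNNB1 call in CTRL lines (adjusted p = 0.0292) was lost in 7 of 12 fits without 1 library, at most to 0.182 without CTRL1101 iMeLC, by DESeq2 and under median-ratio scaling.

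Secreted antagonists outside the member set were called in both directions between the stages, as were large shares of all genes. Of 10 tested, 1 was called higher and 4 lower in CDKO lines, where 32.1% of all genes were called higher and 27.7% lower. In CTRL lines 1 was called higher and 3 lower, where 29.5% and 19.9% of all genes were. In each genotype 5 of the 10 had a positive log2 fold change, with a median of 0.01 in CDKO lines and -0.09 in CTRL lines. The one called higher was CER1 in both, at 2.61 (adjusted p = 0.0318) in CDKO lines and 2.80 (adjusted p = 0.0310) in CTRL lines. The CER1 call in CDKO lines was lost without CDKO hESC 1 or 2 or without CDKO1102 or CDKO1312 iMeLC, at most to an adjusted p of 0.0983 without CDKO hESC 2, and its value was 4.55 without CDKO hESC 3. The CER1 call in CTRL lines was lost without CTRL hESC 2 or 3 or CTRL1109 iMeLC, at most to 0.119 without CTRL1109. SFRP1, which binds WNT proteins, had -2.02 in CDKO lines and -3.92 in CTRL lines, SFRP5 had -2.12 and -0.89, DKK3 had -0.97 and -1.05, and WIF1 had -1.58 in CDKO lines and -0.25 (adjusted p = 0.663) in CTRL lines. Of 13 other genes known to respond to WNT, 8 were called higher and 3 lower in CDKO lines, where 32.1% and 27.7% of all genes were. In CTRL lines 6 were called higher and 0 lower, where 29.5% and 19.9% of all genes were. TBXT, the primitive streak factor brachyury, had 72.5, 75.9 and 30.0 CPM in CDKO iMeLC against 1.01, 2.87 and 5.33 CPM in CDKO hESC, and 51.5, 11.6 and 112 CPM in CTRL iMeLC against 2.36, 0.354 and 0.459 CPM in CTRL hESC. Its log2 fold change was 4.23 in CDKO lines and 5.83 in CTRL lines, and those of the caudal-type factors CDX1 and CDX2 were 3.28 and 4.17 in CDKO lines and 4.78 and 3.81 in CTRL lines. MIXL1, a homeobox gene of the streak, had 3.68 in CDKO lines and 4.50 in CTRL lines. TBXT, MIXL1 and CER1 are also in the mesendoderm marker list. Most fibroblast or feeder markers were called between the stages too, but the range of their sum overlapped between stages in CTRL lines. Their summed level over 7 genes was 792 to 1078 CPM in CDKO iMeLC and 513 to 1052 CPM in CTRL iMeLC. It was 451 to 597 CPM in CDKO hESC and 376 to 597 CPM in CTRL hESC. Of the 7, 5 were called higher and 1, THY1, lower in each genotype, beside the same shares of all genes. DCN had 0 counts in CDKO hESC 1 and LUM had 0 in CTRL hESC 3. THY1 averaged 145 CPM in CDKO iMeLC against 344 CPM in CDKO hESC, and 139.5 CPM in CTRL iMeLC against 279 CPM in CTRL hESC. The part of these markers in the stage differences was not tested.

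Between the genotypes, 2 genes of the pathway lists were called, 1 in hESC and 1 in iMeLC. Tested were 10 ligands, 17 receptors and R-spondins, 24 transducers, 9 antagonists and 11 other responsive genes in hESC. In iMeLC these numbers were 15, 18, 24, 10 and 13, in the same order. Of all genes, 1.31% were called in hESC and 0.345% in iMeLC. SFRP1 was lower in CDKO hESC, with 207, 166 and 263 CPM in CDKO hESC against 488, 304 and 491 CPM in CTRL hESC, a fold of 0.499 (adjusted p = 0.0480, edgeR). The groups did not overlap, but the call was lost in 5 of 6 fits without 1 library, at most to an adjusted p of 0.205 without CDKO hESC 2, when all 12 libraries were fitted together (0.228) and with a filter of 1 CPM (0.0516). CDX4, a caudal-type homeobox gene, was lower in CDKO iMeLC, with 0.0445, 0.0527 and 0.116 CPM in CDKO iMeLC against 1.80, 2.59 and 1.02 CPM in CTRL iMeLC, which is -4.63 on the log2 scale (SE 0.56, adjusted p = 0.0284, edgeR). In hESC CDX4 had 0.794, 0.876 and 0.410 CPM in CDKO against 0.550, 0.808 and 1.06 CPM in CTRL, and its interaction had an adjusted p of 0.0977. The CDX4 call in iMeLC was lost without any 1 of the 3 CDKO libraries, at most to 0.181 without CDKO1102. Of the ligands, receptors and transducers, 0 were called between genotypes in either stage by the edgeR test. An unadjusted p under 0.05 was seen for 3 of 10, 7 of 17 and 4 of 24 of them in hESC. In iMeLC it was seen for 4 of 15, 5 of 18 and 6 of 24. The share of all genes with such a p was not counted, so these counts have nothing to be set against.

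The genes whose pattern was most like that of AXIN2 were CD248, DNAJA2, HS2ST1, RNF41 and LINC01641. Likeness was Pearson's r over 12 libraries of log2 CPM after each group's own mean was taken away, among 14026 genes, and it is a description of libraries that share batch and depth. CD248, a cell surface glycoprotein, had r = 0.96, and the other 4 had 0.95. DNAJA2, a co-chaperone, had 307, 324 and 283 CPM in CDKO iMeLC and 321, 269 and 254 CPM in CTRL iMeLC. Of the other WNT target genes, LEF1 had r = 0.60, ZNRF3 0.57, TCF7 0.56, NKD1 0.47, RNF43 0.42, SP5 0.09, NOTUM -0.18, DKK4 -0.34 and DKK1 -0.38, so SP5, NOTUM and the DKK genes varied between libraries of a group in other ways than AXIN2.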

How the data were processed

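The authors deposited raw counts by gene symbol, whole numbers without normalisation, in 2 tables, one for hESC and one for iMeLC. The submitters' processing notes name FastQC, cutadapt, edgeR and GRCh38. The sources used here name no aligner, counter, annotation or strand setting, and the stranded total RNA kit of the labels does not settle the strand setting. Columns of the iMeLC table name the line. Columns of the hESC table give WT or KO and a number, read as CTRL and CDKO, and no line. A chi-square comparison of replicate libraries gave 4.04 to 181 per gene, so no pair was counted as 1 library.

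Counts were tested with edgeR 4.0.16 (R 4.3.3; TMM, filterByExpr, glmQLFit and glmQLFTest, two-sided, Benjamini-Hochberg over all genes tested), CDKO against CTRL within a stage on 6 libraries, and iMeLC against hESC and the interaction over 12 libraries with 4 group means. Standard errors and 95% intervals come from the same test. CPM are from the 12-library scaling. Levels per kilobase use the merged exons of GENCODE 29, to which 93.1% of the symbols matched exactly once. The fits were tested on simulated data. DESeq2 1.42.0, median-ratio scaling, 2 other filters, other sets of libraries and leaving out each library were tried. The text names all 10 members, up to 4 called genes of each pathway list with the smallest p, the 5 genes most like AXIN2 (mean of at least 1 CPM, log2 of CPM plus 0.1, no clone-based symbols), and, chosen after their values were seen, TET1, single cell type markers and the promoters shown. The members and lists were chosen with earlier results of these data known.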

Additional observations from a re-analysis of the deposited data

How the results depend on the processing

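Over all genes, the 226 called between CDKO and CTRL hESC became 1228 with no expression filter, 618 by DESeq2, 72 in the fit over 12 libraries and 5 to 493 when 1 library was left out. The 69 called in iMeLC became 428 with no filter, 1566 by DESeq2, 1310 in the fit over 12 libraries and 15 to 2646 with 1 library left out, and the 4 interaction calls became 29 with no filter, 217 by DESeq2 and 1 to 439 with 1 library left out. Of the WNT target genes, 0 were called between genotypes except 2 in hESC with no filter and 0 to 1 in each stage with 1 library left out. Between stages 6 to 9 were called in CDKO lines and 7 to 9 in CTRL lines, where 8 were reported in each. With 1 library left out, calls of pathway genes between stages were counted once per gene and fit. They were lost 40 times and kept 584 times in CDKO lines, and lost 70 times and kept 470 times in CTRL lines. The cause of these shifts was not tested.

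Directions between genotypes turned for small differences and, with 1 library left out, for the larger ones of DKK1 and DKK4. ZNRF3 in CDKO against CTRL iMeLC went to the other side of 0 at 0.00 under median-ratio scaling, 0.00 by DESeq2 and 0.03 in the fit over 12 libraries, and its interaction at 0.00 with no filter and -0.02 with a filter of 1 CPM. With 1 library left out, the hESC genotype difference ranged from -0.40 to 0.10 for LEF1, -0.20 to 0.29 for RNF43, -0.37 to 0.33 for NOTUM and -0.62 to 2.65 for DKK1. In iMeLC the ranges were -0.39 to 0.03 for SP5, -0.04 to 0.07 for ZNRF3, -0.06 to 1.09 for LEF1, -0.12 to 0.70 for NKD1, -0.06 to 0.14 for TCF7 -0.94 to 2.33 for DKK4 and, with no turn, 0.58 to 2.44 for DKK1. The interaction ranged from -0.30 to 0.52 for NKD1, -0.05 to 0.70 for NOTUM, -0.06 to 0.05 for ZNRF3, -0.08 to 0.27 for AXIN2, -1.63 to 1.66 for DKK1 and -0.19 to 0.01 for TCF7. Where CTRL hESC 1 was left out, DKK4 had 0 counts in both remaining CTRL hESC libraries and its fitted value is no bound. No paired analysis was possible because the hESC columns do not name the line, so libraries of the same line could not be matched between stages. Few counts limit DKK1 and DKK4 in CTRL hESC 2 and 3, which held 3 and 8 counts of DKK1 and 0 of DKK4. The totals of these libraries, 17804540 and 18855099 counts, were above the 16958407 of CDKO hESC 3. CDKO hESC 1, the shallowest library at 12517593 counts, held 4 counts of DKK1 and 8 of DKK4.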
